A study of Mus musculus with 2 samples.

Results

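Mir375 and the 3 miR-7 genes of the mouse, Mir7b, Mir7-1 and Mir7-2, were followed in the adrenal gland as microRNA genes known from endocrine secretory cells. The rule that picks them goes by name and uses no measured value, but it was set with earlier results of these data known. The identifiers in the count tables were matched to GENCODE M21 symbols, and all 4 names were found among the 2202 microRNA genes listed. The libraries came from adrenal tissue of B6CASTF1/J females, hybrid mice of the first generation, at 2 months of age. There was 1 group with 2 biological replicates, and neither library carried a treatment or an engineered allele. The tissue labels number the replicates as different females, while both carry the same donor label, so the SDs may measure the spread between samples only. The tables held 2839732 gene counts in replicate 1 and 2280028 in replicate 2, and levels are given as counts per 1000000 of these (CPM). Unless stated otherwise, means carry the SD over n = 2.

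A microRNA is cut from a hairpin precursor as a short strand from either arm, named 5p or 3p, and it pairs with target messages mainly through its seed, bases 2 to 8. miR-375 is best known from pancreatic islets, where it restrains insulin release and is needed for a normal mass of alpha and beta cells, and it is also present in the pituitary and other neuroendocrine tissue. miR-7 is known from islets, pituitary and hypothalamic neurons, and in neurons it is bound by the circular RNA Cdr1as. In mice, Mir7-2 is known as a main source of miR-7 in the pituitary and in beta cells. In the adrenal gland the chromaffin cells of the medulla are the neuroendocrine cells, and they lie inside a cortex that makes steroids.

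The mature sequences decide which reads can be given to which gene, so those listed for the 4 genes by RefSeq (GRCm38.p6) are shown here from 5′ to 3′ with the seed in capitals. The table holds 6 mature names for them. It lists no miR-375-3p, so that strand is named only, and the Mir375 seed shown is that of the 5p strand. Counts are given per gene, so which arm of Mir375 was read is not known.
miR-7a-5p of Mir7-1 and Mir7-2: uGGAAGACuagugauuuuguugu
miR-7b-5p of Mir7b: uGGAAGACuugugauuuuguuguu
miR-7a-1-3p of Mir7-1: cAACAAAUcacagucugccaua
miR-7a-2-3p of Mir7-2: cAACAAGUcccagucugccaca
miR-7b-3p of Mir7b: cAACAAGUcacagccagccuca
miR-375-5p of Mir375: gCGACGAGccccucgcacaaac
All 3 miR-7 genes share the 5p seed GGAAGAC, and none of the other genes among the 1679 mature names of the table has it. Over 23 bases miR-7b-5p and miR-7a-5p differ at 1 position, U10A, counted from 1 at the 5′ end of miR-7b-5p, which lies outside the seed. The 3p strands are less alike. That of Mir7b shares its seed with that of Mir7-2 but not with that of Mir7-1, from which it differs at 5 of 22 positions.

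The 4 hairpins are shown next, with the mature strands of the RefSeq table in capitals, because their shared stretch limits what was counted for Mir7-1 and Mir7-2.
Mir375: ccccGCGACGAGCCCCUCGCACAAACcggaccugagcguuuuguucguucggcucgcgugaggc
Mir7b: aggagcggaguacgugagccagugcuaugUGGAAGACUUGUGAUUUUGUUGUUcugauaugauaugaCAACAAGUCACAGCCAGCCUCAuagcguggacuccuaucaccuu
Mir7-1: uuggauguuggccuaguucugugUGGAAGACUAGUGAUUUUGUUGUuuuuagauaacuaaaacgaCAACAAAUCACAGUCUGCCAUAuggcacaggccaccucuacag
Mir7-2: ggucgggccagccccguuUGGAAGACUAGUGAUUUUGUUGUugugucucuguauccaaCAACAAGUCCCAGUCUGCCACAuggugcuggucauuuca
Mir375 (ENSMUSG00000065616.3) lies at chr1:74900658-74900721 of mm10 on the minus strand, outside any other annotated transcript, between Cryba2 and Cfap65, whose nearest end is 1349 bases away. Mir7b (ENSMUSG00000065491.1) lies at chr17:56242988-56243098 on the plus strand, 182 bases beyond the long noncoding gene AC026385.1 on the same strand, and overlaps no transcript itself. Mir7-1 (ENSMUSG00000065434.1) lies at chr13:58392779-58392886 on the minus strand within Hnrnpk, an RNA-binding protein gene read on that strand. It is intronic in all 12 overlapping transcripts, and in Hnrnpk-201 it sits in intron 15. Mir7-2 (ENSMUSG00000065609.1) lies at chr7:78888277-78888373 on the plus strand in no annotated transcript, 7480 bases from Aen. The hairpins are thus on 4 chromosomes, and the closest other microRNA gene to any of them is 70862 bases away, beside Mir7b. They hold 67.2% G and C in Mir375, 46.8% in Mir7b, 41.7% in Mir7-1 and 50.5% in Mir7-2.

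The strand miR-7a-5p lies wholly in a stretch of 24 bases that Mir7-1 (hairpin bases 24 to 47) and Mir7-2 (19 to 42) have in common. A read of this strand in its listed form aligns equally well to both genes. Reads that aligned to several places had a row of their own in the tables and were given to no gene. On the basis of this shared stretch alone, the counts of Mir7-1 and Mir7-2 are read here as leaving out miR-7a-5p in its listed form, so that its level is not measured by them. The aligner and its settings are not given in the sources used here, and which reads make up the counts of Mir7-1 and Mir7-2 was not tested. Of the windows of 20 bases in each hairpin, 84 of 89 in Mir7-1 and 73 of 78 in Mir7-2 occur in no other annotated hairpin. By contrast, all 92 windows of Mir7b and all 45 of Mir375 were unique among the hairpins. No exact stretch of 20 bases shared with another hairpin therefore limits their counts. Places outside the annotated hairpins and alignments with mismatches were not searched. The longest stretch that Mir7b has in common with Mir7-1 or Mir7-2 is 14 bases.

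**Figure D1:**
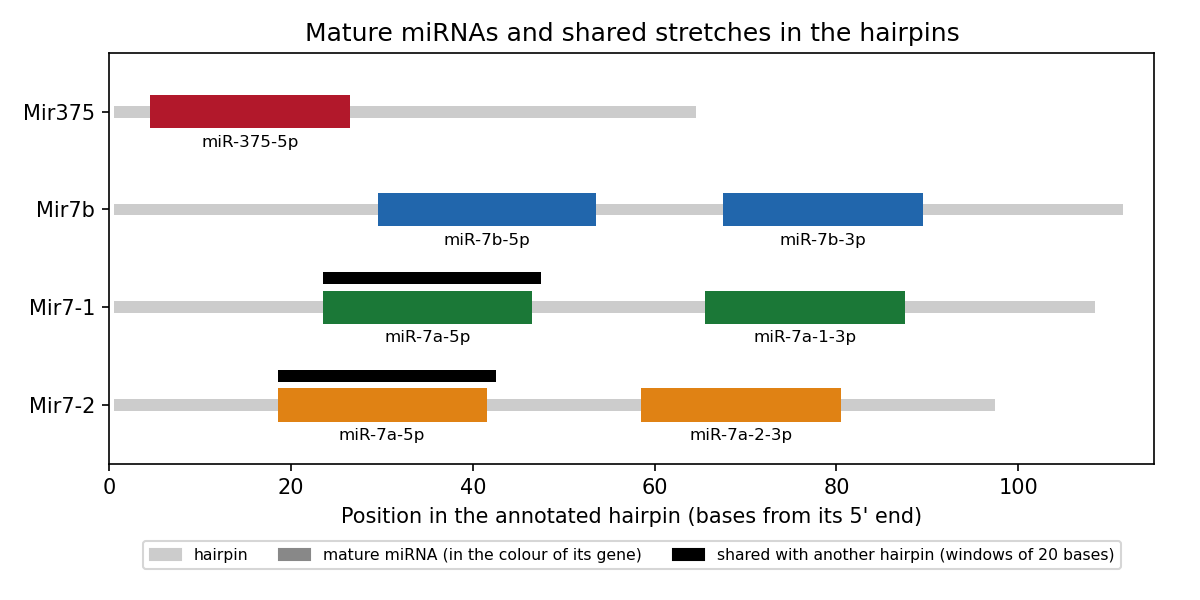
Bars show each annotated hairpin from its 5′ end in bases (grey), the mature strands listed by RefSeq (coloured) and the stretches found in another annotated hairpin by windows of 20 bases (black). Only Mir7-1 and Mir7-2 have such a stretch, over miR-7a-5p.

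Mir375 was by far the most abundant of the 4 genes. It had 111945 counts in replicate 1 and 86139 in replicate 2, which is 39421 and 37779.8 CPM. The mean of 38600.4 ± 1160.5 CPM placed it at rank 7 of all microRNA genes, with rank 9 in replicate 1 and rank 7 in replicate 2. Among reads assigned to a gene, Mir375 therefore belonged to the most abundant microRNA genes of the gland in both samples. The ranks leave out reads that aligned to several places, 28.8% of reads in replicate 1 and 25.3% in replicate 2. Genes that share their mature strand with another gene may therefore rank too low beside Mir375.

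Mir7b was the main miR-7 gene among assigned reads. Its counts were 8805 in replicate 1 and 4892 in replicate 2, or 3101 and 2146 CPM, with a mean of 2623 ± 675 CPM at rank 54. Mir7-1 had 605 and 334 counts, or 213 and 146 CPM, and a mean of 179.8 ± 47.1 CPM at rank 160. Mir7-2, the gene known from pituitary and beta cells, was the lowest, with 116 counts in replicate 1 and 177 in replicate 2. These are 40.8 and 77.6 CPM, with a mean of 59.2 ± 26.0 CPM at rank 211. All 4 genes had at least 10 counts in both libraries, which was true of 342 of the 2202 genes.

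**Figure D2:**
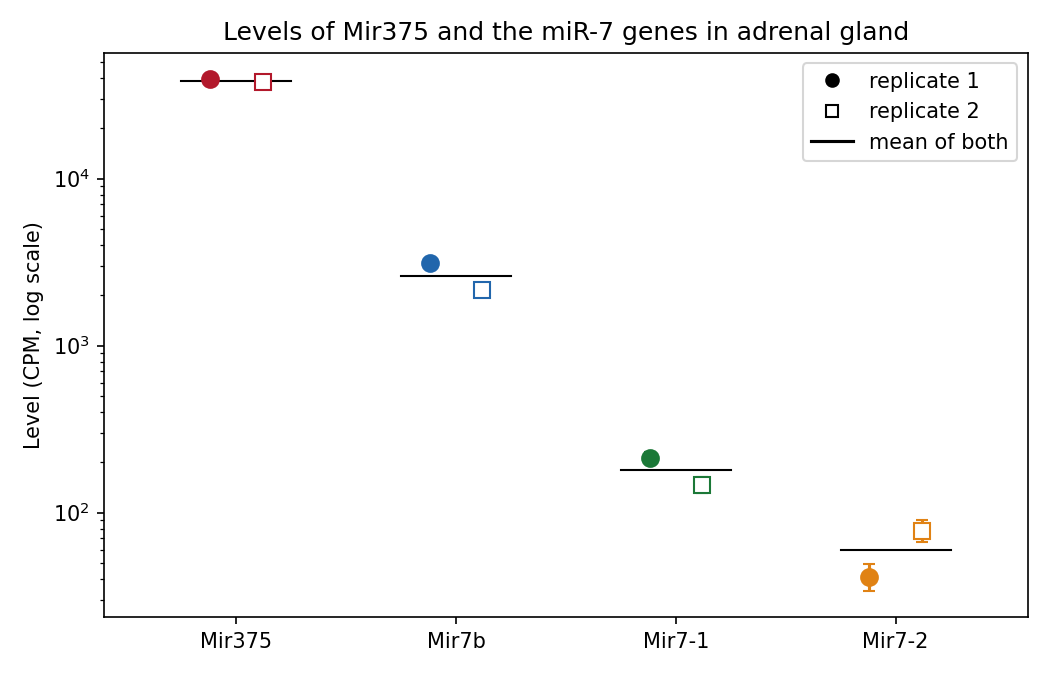
Points give the level of each gene in replicate 1 (filled circles) and replicate 2 (open squares) in CPM on a log axis, with exact 95% intervals for counting error and a line at the mean. The order from Mir375 at 38600.4 CPM down to Mir7-2 at 59.2 CPM is the same in both replicates.

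The order Mir375, Mir7b, Mir7-1, Mir7-2 held in both libraries, and each mean exceeded the next by more than both SDs added. A short RNA is read whole, so a count does not grow with the length of its hairpin. Scaled all the same to hairpin length, the levels were 603 ± 18.1 CPM per base for Mir375, 23.6 ± 6.08 for Mir7b, 1.66 ± 0.436 for Mir7-1 and 0.611 ± 0.268 for Mir7-2, in the same order. For Mir7-1 and Mir7-2, against each other and against Mir375 and Mir7b, the order holds for reads outside the shared stretch only.

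Of all gene counts, which leave out reads aligned to several places, the 4 genes held 4.28% in replicate 1 and 4.01% in replicate 2. Mir375 made up 92.2% and 94.1% of this sum. Among the 3 miR-7 genes, Mir7b held 92.4% (exact 95% interval 91.9 to 93.0) in replicate 1 and 90.5% (89.7 to 91.3) in replicate 2. Mir7-1 held 6.35% (5.87 to 6.86) and 6.18% (5.55 to 6.86), so its share did not differ beyond counting error. Mir7-2 held 1.22% (1.01 to 1.46) in replicate 1 and 3.28% (2.82 to 3.79) in replicate 2. These shares leave out miR-7a-5p reads of the shared stretch. Intervals here and below cover counting error of reads within these libraries only. PCR copies of a molecule were not told apart, so reads may not be independent. The intervals may therefore be too narrow and the p-values below too small.

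No count fell on the strand opposite to any of the 4 hairpins in either library. The limit that 0 counts allow is 3 counts, which is 1.06 CPM in replicate 1 and 1.32 CPM in replicate 2. The unstranded and the sense counts were accordingly identical for each gene, and none of the 4 lost reads to an antisense partner.

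The genes nearest to Mir375 in level were Mirlet7i (41515 ± 208 CPM) and Mir139 (40019.6 ± 4612 CPM) above it, and Mirlet7d (37259 ± 6276 CPM) and Mir10a (36323 ± 3588 CPM) below it. Only the difference from Mirlet7i exceeded both SDs added. Around Mir7b stood Mir455 (2712 ± 265 CPM), Mir324 (2647 ± 843 CPM), Mir34a (2542 ± 1135 CPM) and Mir17 (2282 ± 780 CPM). Mir7-1 stood between Mir700 (185 ± 18.3 CPM) and Mir30b (182 ± 53.6 CPM) above and Mirlet7a-2 (179 ± 32.7 CPM) and Mir381 (179 ± 36.7 CPM) below. The neighbours of Mir7-2 were Mir323, Mir1193, Mir224 and Mir301, all between 58.8 and 59.6 CPM. None of these 12 genes differed from its miR-7 gene beyond the SDs.

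The replicates were then compared gene by gene, as the spread between samples is the only contrast the design holds. The 369 genes whose counts averaged 10 or more were each given an exact binomial test (two-sided) against the split of the library totals, and p-values were adjusted by Benjamini-Hochberg over all 369. Calls needed both an adjusted p under 0.05 and at least a 2-fold ratio. The test compares these 2 libraries, and with 2 samples no exact test over samples could give a p below 0.5. By this rule 69 genes were called, 18.7% of those tested, and none of the 4 genes was among them. Called genes were higher in replicate 1 in 37 cases and lower in 32, and the split was 48 against 19 with all reads of each library as the denominator.

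Mir375 differed least of the 4. Its ratio of replicate 1 over replicate 2 was 1.04 (exact 95% interval 1.03 to 1.05, adjusted p = 2.33e-20 by the exact binomial test), and 26 of the 369 genes had a smaller log2 difference in size. With unstranded counts the ratio was 1.00 and its adjusted p by the same exact test was 0.497.

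Mir7b and Mir7-1 were both higher in replicate 1, with like ratios. Mir7b had a ratio of 1.45 (1.40 to 1.497, adjusted p = 1.37e-96 by the exact binomial test). For Mir7-1 the ratio was also 1.45 (1.27 to 1.67, adjusted p = 7.28e-08 by the exact binomial test). Their log2 ratios, 0.53 and 0.54, lay near the middle of all genes in size, since 207 and 210 of 369 genes differed by less. Mir7-2 went the other way and was lower in replicate 1, with a ratio of 0.526 (0.413 to 0.669, adjusted p = 1.41e-07 by the exact binomial test). Its interval reached past the 2-fold line, and 293 of 369 genes had a smaller difference. An adjusted p under 0.05 at any fold, as all 4 genes had, was common, at 62.6% of the genes tested. Of all genes tested, 26.8% passed it with a higher and 35.8% with a lower level in replicate 1. The directions of the 4 ratios were the same under all 7 alternatives of scaling, strand and filter. With all reads of each library as the denominator, the median log2 ratio over all genes tested was 0.14, against -0.07 with gene totals, and with TMM scaling it was 0.04. Under these 2 scalings the ratio of Mir7b was 1.68 and 1.57, and that of Mir7-2 was 0.612 and 0.570.

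**Figure D3:**
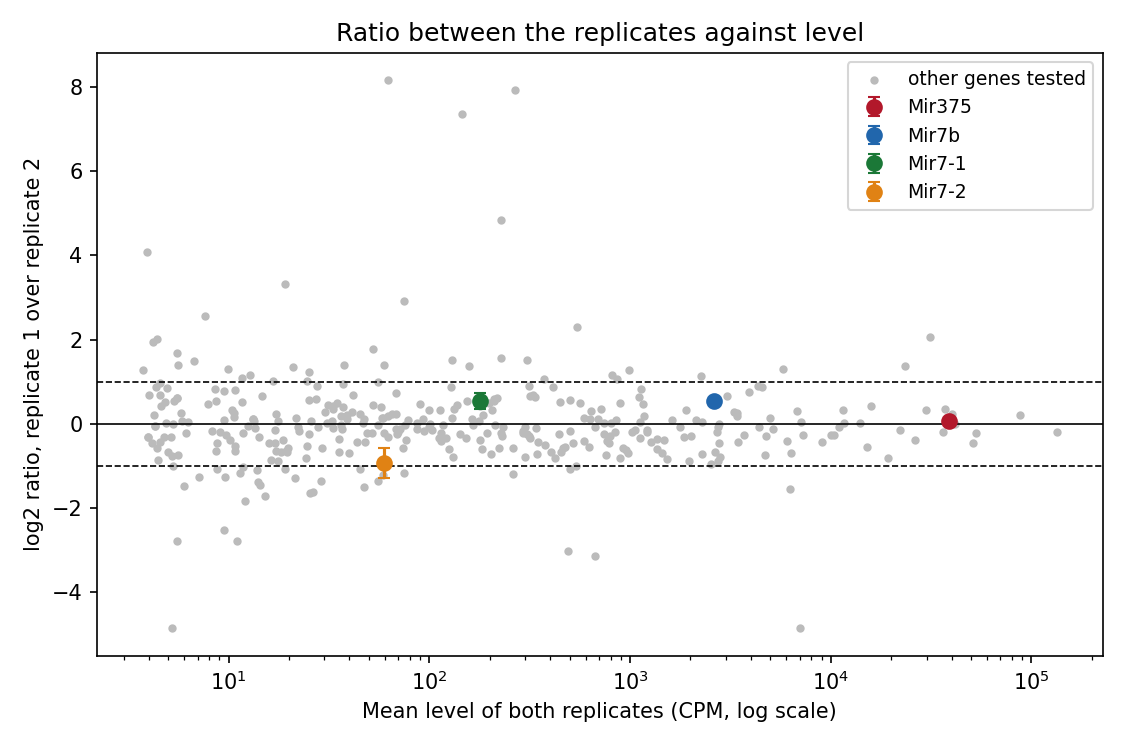
Points show the log2 ratio of replicate 1 over replicate 2 against the mean level in CPM (log axis) for the 369 genes tested, with exact 95% intervals for the 4 named genes and dashed lines at 2-fold. Mir375 lies at 0.06, Mir7b and Mir7-1 at 0.53 and 0.54, and Mir7-2 at -0.93, all inside the dashed lines.

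Ratios between genes of the same library need no scaling to a total. Mir7b exceeded Mir7-1 by 14.6-fold (exact 95% interval 13.4 to 15.8) in replicate 1 and by 14.6-fold (13.1 to 16.4) in replicate 2. The proportion of Mir7b to Mir7-1 therefore did not differ between the samples beyond counting error, and the genes lie on different chromosomes. The counts of Mir7-1 and Mir7-2 are read here as leaving out miR-7a-5p, while miR-7b-5p lies in no such shared stretch. Ratios of Mir375 or Mir7b to either gene thus compare unlike parts of the genes and do not measure miR-7b against miR-7a. Mir7-1 exceeded Mir7-2 by 5.22-fold (4.27 to 6.42) in replicate 1 but by 1.89-fold (1.57 to 2.28) in replicate 2, and these intervals were apart. Mir375 exceeded Mir7b by 12.7-fold (12.4 to 12.99) and 17.6-fold (17.1 to 18.1), also apart. Of the 6 pairs among the 4 genes, Mir7b and Mir7-1 formed the only one whose intervals in the 2 libraries overlapped.

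**Figure D4:**
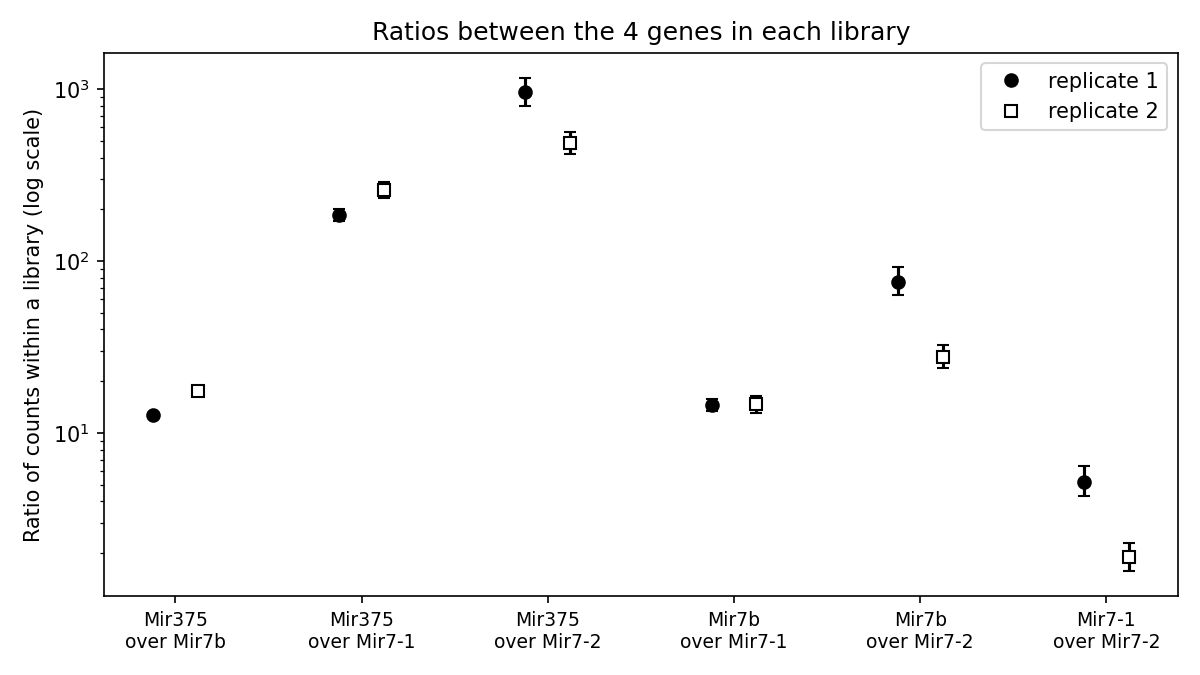
Points give the ratio of counts of each pair of genes in replicate 1 (filled circles) and replicate 2 (open squares) on a log axis, with exact 95% intervals for counting error. Mir7b over Mir7-1 is 14.6 in both, while Mir7-1 over Mir7-2 is 5.22 in replicate 1 and 1.89 in replicate 2. Counts of Mir7-1 and Mir7-2 are read as leaving out miR-7a-5p.

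Likeness to other genes could be measured over 2 libraries only, as the distance between log2 ratios among the 234 genes whose counts averaged 100 or more. The genes nearest to Mir375 were Mir152 (0.06), Mir676 (0.05) and Mir30a (0.03). Mir222 (0.53) and Mir125b-2 (0.54) stood beside both Mir7b and Mir7-1, each of which was also among the 3 genes nearest to the other. Mir34a (-0.94), Mir671 (-0.88) and Mir107 (-0.87) were nearest to Mir7-2. The measure rests on 1 ratio per gene and describes these samples only.

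Mir375 was far above other neuroendocrine and neuronal microRNAs. Mir375 alone stood at 39421 and 37779.8 CPM, against 5809 CPM in replicate 1 and 5629 CPM in replicate 2 for the sum of a list of 24 such genes. Of these 24, 17 had at least 10 counts in both libraries. Mir335 led with 2759 ± 610.2 CPM, a level close to that of Mir7b. Mir132, which responds to neuronal activity and hormones, followed at 991 ± 586 CPM, and the sensory-organ genes Mir182 and Mir183 reached 798 ± 111 and 448 ± 111 CPM. Mir137 and Mir138-1, both known from brain, were at 317 ± 99.6 and 86.9 ± 0.657 CPM. Mir7-1 lay below Mir137 by less than both SDs added, and above Mir138-1 by more. Mir138-1 shares windows of 20 bases with Mir138-2, and the Mir128, Mir129 and Mir218 genes of the list share windows within their families, so their counts and the sum of the list may leave out shared reads.

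Among the 17 tested genes of the list, 2 were called higher in replicate 1, Mir132 (2.44-fold) and Mir128-1 (2.36-fold). Mir153 was called lower there, with a ratio of 0.303, and 14 were not called. The share of the list called, 17.6%, was near the 18.7% of all genes tested. Mir128-1 and Mir153 were named after their values were seen. The median log2 ratio was 0.30 over Mir375 and the miR-7 genes, 0.41 over these 17 genes and -0.07 over all 369 genes tested. Both sets held genes of either direction. Mir7-2 had a log2 ratio of -0.93. In the list, Mir335 (0.729) and Mir182 (0.821) were lower in replicate 1, while Mir183 (1.43) and Mir137 (1.57) were higher, as Mir132 was. The summed counts of the list had a ratio of 1.03. Whether either set moved jointly was not tested. All 3 Mir9 genes and all 3 Mir124a genes had 0 counts in both libraries. Each of these 6 hairpins shares windows with others of its family, as Mir7-1 and Mir7-2 do. Reads of their mature strands may likewise have been given to no gene, which was not tested. Their zeros are therefore not read as a measure of these neuronal microRNAs.

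Markers of other tissues were read beside these levels, because miR-375 is also abundant in pancreas and gut. Of 4 exocrine pancreas genes, Mir216b and Mir217 had 1 count each in replicate 1 and none in replicate 2, and Mir216a and Mir216c had none in either. Mir216b and Mir216c lie on opposite strands of the same place, each counted on its own strand, and Mir216a and Mir217 share no window of 20 bases with another hairpin. Kidney and gut epithelial microRNAs, 9 genes, summed to 175 CPM in replicate 1 and 118 CPM in replicate 2, with Mir194-2 highest at 38.9 ± 2.27 CPM. Mir375 alone exceeded the whole epithelial list by 225-fold in replicate 1 and 319-fold in replicate 2. Mir194-1 and Mir194-2 share windows of 20 bases, so shared reads may be missing from this sum and these folds may be too large. All 7 genes of the steroidogenic cortex list were detected and summed to 52362 and 30961 CPM, led by Mir21a (33612 and 13012 CPM). Mir132 and Mir212 are in this list and also in that of other neuroendocrine and neuronal genes, so they add to both sums. As bulk tissue was measured, fewer cells of a type and less RNA per cell cannot be told apart.

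Tissue markers also differed between the replicates. Of the 8 tested genes of the kidney and gut epithelium list, 3 were called, 37.5% against 18.7% of all genes tested. These were Mir200b (9.94), Mir429 (5.94) and Mir200a (3.81), all higher in replicate 1, with only 8, 5 and 4 counts in replicate 2. The other 5 were not called, among them Mir194-2, the highest of the list, with a ratio of 1.09. Skeletal and heart muscle microRNAs summed to 953 CPM in replicate 1 and 4.39 CPM in replicate 2, with Mir206 highest. Mir133a-1, Mir133a-2 and Mir133b had 0 counts in both, but they share windows with each other, as the Mir1a genes do, so reads of their mature strands may be missing from these counts. Erythroid microRNAs summed to 643 CPM in replicate 1 and 14488 CPM in replicate 2, mostly from Mir451a. Of the 3 genes, Mir451a (0.0346) and Mir144 (0.123) were called lower in replicate 1, while Mir486 had a ratio of 1.13 and was not called. The sum of the steroidogenic list was 1.69-fold higher in replicate 1, but its genes split. Mir21a (2.58), Mir125a (2.45) and Mir132 (2.44) were called higher there, while Mir320, Mir34a and Mir455 had ratios of 0.624, 0.520 and 0.871 and Mir212 of 1.42, none of them called. The liver gene Mir122 had a ratio of 1.58 and the endothelial gene Mir126a of 0.727, neither of them called. The white blood cell list summed to a ratio of 1.27. Of its 4 genes only Mir223 was called, at 7.57-fold, while Mir150, the most abundant, had a ratio of 1.41, and Mir155 and Mir142 had ratios below 1. Genes here beyond the most abundant of each list were named after their values were seen. The part of these markers in the ratios of Mir375 and the miR-7 genes was not tested. With the erythroid and muscle genes left out of the totals, the ratio was 1.03 for Mir375, 1.43 for Mir7b, 1.44 for Mir7-1 and 0.519 for Mir7-2. This setting was chosen after seeing the data.

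**Figure D5:**
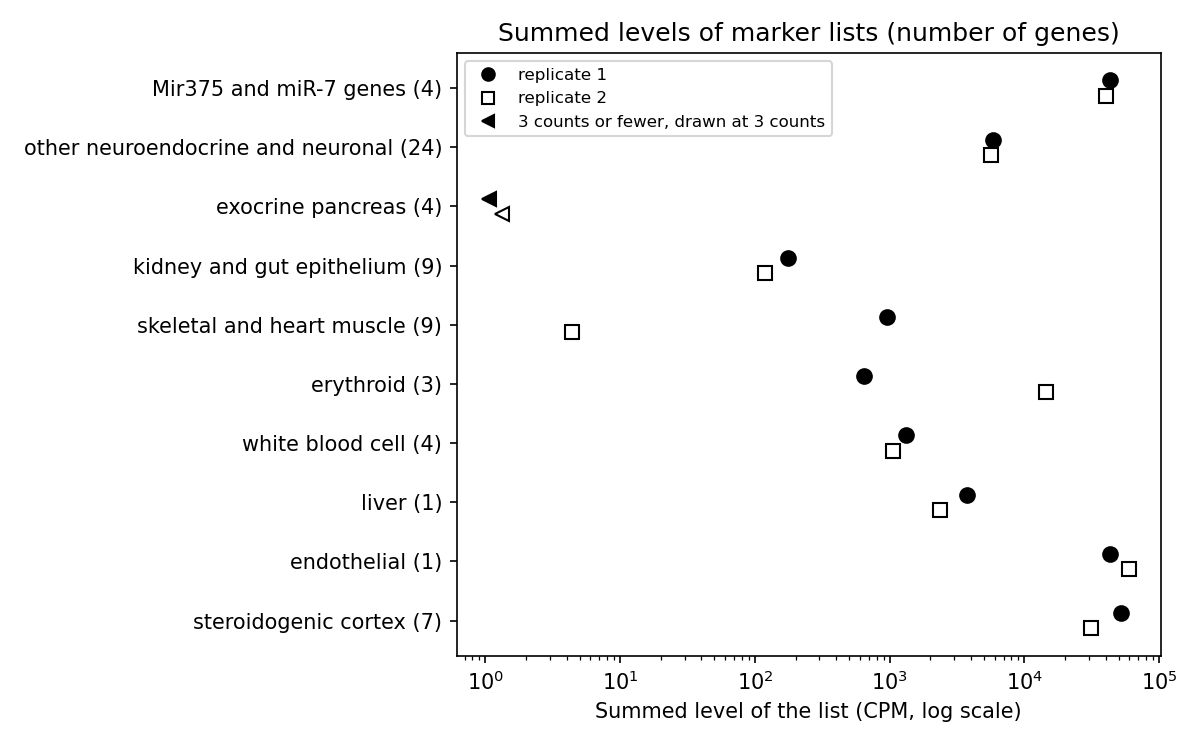
Points give the summed level of each marker list in CPM (log axis) in replicate 1 (filled circles) and replicate 2 (open squares), with the number of genes in brackets and triangles at the floor of 3 counts where a list had 3 counts or fewer. Mir375 and the miR-7 genes stand at 42776 and 40149.5 CPM, and exocrine pancreas genes at the floor.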

How the data were processed

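Small RNA of 2 adrenal samples was analysed from the deposited tables of raw read counts per microRNA gene (mm10, GENCODE M21, per the file lists the authors deposited beside them). No source used here names the aligner or counter. Each table gives counts without strand, on the strand of the gene and on the other strand. Of the 2 stranded columns, that with the larger total was used. The 4 rows that name no gene were kept out of gene totals and tests, except in the setting with all reads as denominator. In replicates 1 and 2 they held 29.8% and 39.7% of 9278190 and 8659511 reads (unmapped), 28.8% and 25.3% (several places), 10.8% and 8.60% (outside genes), and 8.62e-05% and 0% (ambiguous). A count was worth 0.352 and 0.439 CPM.

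Levels, exact binomial tests and exact (Clopper-Pearson) 95% intervals were computed with Python 3.11.15 and SciPy 1.17.1. TMM factors and a biological coefficient of variation of 44.8% (intercept only) came from edgeR 4.0.16, and median-of-ratios factors from DESeq2 1.42.0. The binomial rule was tested on simulated counts that held counting error only. The simulation left out the spread between samples, so it does not show how the rule behaves under that spread. Shared stretches were windows of 20 bases found in any other GENCODE microRNA transcript on either strand. All 4 genes matched the RefSeq table by symbol, with hairpin positions equal to those of GENCODE. The other genes named were up to 6 detected genes of highest level in the other neuroendocrine and exocrine pancreas lists, the top gene of each remaining list, and the 4 genes nearest in level and 3 nearest in ratio to each of the 4. The genes and lists were chosen with earlier results of these data known.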

Additional observations from a re-analysis of the deposited data

Results flagged for a closer look

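Reads that aligned to several places and were given to no gene numbered 2673681 in replicate 1 and 2193599 in replicate 2. These reads entered comparisons only as part of the setting with all reads of each library as the denominator. The listed form of miR-7a-5p aligns to both Mir7-1 and Mir7-2, and how many of these reads it made up was not measured.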

How the results depend on the processing

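The ratios of the 4 genes between the replicates kept their direction and stayed uncalled under 7 alternatives each: unstranded counts, TMM, median-of-ratios, all reads as denominator, totals without erythroid and muscle genes, no filter and a mean count of at least 100. They ranged from 1.00 to 1.21 for Mir375, 1.39 to 1.68 for Mir7b, 1.40 to 1.69 for Mir7-1 and 0.506 to 0.612 for Mir7-2. Levels moved with the denominator by construction. Per 1000000 of all reads they were 11006 for Mir375, 757 for Mir7b, 51.9 for Mir7-1 and 16.5 for Mir7-2. Without the 10 most abundant other genes in the total they were 84379, 5761, 395 and 128, in the same order of genes. With unstranded counts Mir375 was at 44828 CPM. Per hairpin base, Mir375 exceeded Mir7b by 26.3-fold, Mir7-1 by 374-fold and Mir7-2 by 1100.1-fold, and Mir7b exceeded Mir7-1 by 14.2-fold. The counts of Mir7-1 and Mir7-2 in these folds are again read as leaving out miR-7a-5p. Calls lower in replicate 1 fell to 19 with all reads as denominator. At a mean count of at least 100, with fewer genes tested, 21 were higher, 12 lower and 33 called in all. No paired analysis was possible because there is 1 group. The depth limits Mir7-2 most, with 116 and 177 counts.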
